A study of Mus musculus with 12 samples.

Results

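The genes described here encode the proteins of the cytosolic ribosome. They were taken by symbol: every gene named by a single-symbol probe set whose symbol begins with Rpl, Rps or Rplp and a digit, leaving out the Rps6k kinases, Rpl39l and symbols marked as pseudogenes. The rule found 48 of the 18193 genes that have a probe set of their own, and used no measured value except to take, for each gene, the probe set with the highest mean over the 12 arrays. They were 20 large-subunit genes, 20 small-subunit genes, 2 genes of the ribosomal stalk (Rplp0 and Rplp2), 5 paralogs of ribosomal protein genes (Rpl7l1, Rpl22l1, Rpl3l, Rps27l and Rps4l) and Rps19bp1. The last encodes a protein that binds Rps19 and is not itself a ribosomal protein, and Rps4l is listed in RefSeq as a transcribed pseudogene. RefSeq holds 87 protein-coding mouse genes that fit the rule, of which 47 were among the members. A further 30 ribosomal protein genes, Rplp1 among them, were named only by probe sets that carry several symbols.

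A ribosome is built in the nucleolus, where RNA polymerase I makes the precursor of the ribosomal RNAs and a large group of assembly factors folds, cuts and modifies it while ribosomal proteins are added. Ribosomal proteins are made from short, abundant mRNAs, most of which begin with a C followed by a run of pyrimidines, the 5′ terminal oligopyrimidine (TOP) motif. The translation of such mRNAs is controlled by nutrient and growth signals through mTOR, and T cells are known to increase their protein synthesis strongly after antigen recognition.

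The arrays measured total RNA of cultured mouse lymph node cells. All mice carried the P14 T cell receptor, whose transgenic T cells recognise the viral peptide gp33-41, and they were either wild type or lacked protein kinase D2 (PKD2, encoded by Prkd2). There were 3 mice of each genotype, and the suspension of each mouse was cultured for 4 h without peptide and for 4 h with peptide at 62.5 ng/ml, giving 4 groups of 3 arrays in which each mouse appears in both conditions of its genotype. Age and sex are not given in the sources used here, and neither is how the PKD2-null mice were made. The suspensions were not described as sorted, and fewer cells of a type and less RNA per cell cannot be told apart in such samples.

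Without peptide, Prkd2 had a log2 signal of 10.17 ± 0.17 (SD, n = 3 arrays) in the wild-type group and 6.00 ± 0.29 in the null group. With peptide it had 8.33 ± 0.18 and 5.48 ± 0.12, and every null array lay below every wild-type array. The mean level of the T cell markers lay between 10.86 and 11.49 on all arrays. In wild-type cells it was lower with peptide, at 10.91 to 11.01 against 11.23 to 11.40 without. In null cells its ranges overlapped, at 10.86 to 11.28 with and 11.00 to 11.49 without peptide. The mean level of the B cell markers was lower with peptide and higher in the null groups. Its ranges without and with peptide were 8.76 to 8.85 and 8.13 to 8.29 in wild-type cells, and 9.22 to 9.94 and 8.59 to 9.35 in null cells. The log2 signals ran from 2.43 to 15.07, with array medians between 4.66 and 4.72. Most ribosomal protein probe sets lay near the top of this scale: 34 of the 48 members had a mean of at least 13, and 2, Rpl3l and Rps16, lay below every array median.

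With peptide most ribosomal protein genes were not called, while all measured genes of a list of ribosome assembly factors rose. In wild-type cells 6 of the 48 members were called higher and 0 lower (adjusted p under 0.05 in limma; 9 had an unadjusted p under 0.05), against 12.8% higher and 16.2% lower among all 45037 probe sets. In PKD2-null cells 5 were called higher and 0 lower (8 with an unadjusted p under 0.05), against 11% and 13.8%. The median change of the members was -0.03 in both genotypes, beside 0.01 and -0.01 over all probe sets. The 5 members called in null cells were Rpl7l1, Rps19bp1, Rps27l, Rpl12 and Rps25, and wild-type cells added Rpl14.

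None of the 34 members with a mean of at least 13 was called in either genotype by limma, and 0 in wild-type and 2 in null cells, Rps9 and Rpl41, had an unadjusted p under 0.05. Their changes ran from -0.13 (Rps9) to 0.13 (Rpl41) in wild-type cells and from -0.16 to 0.17, for the same genes, in null cells. The 95% intervals of all 34 lay between -0.28 and 0.30 in wild-type and between -0.31 and 0.33 in null cells. Rpl41, the smallest protein of the ribosome, had log2 signals of 14.39, 14.30 and 14.35 without and 14.42, 14.59 and 14.43 with peptide in wild-type cells, and 14.28, 14.32 and 14.31 against 14.48, 14.47 and 14.45 in null cells. Its stimulated arrays lay above the unstimulated ones in both genotypes, by less than the test required (adjusted p of 0.23 and 0.14). A second probe set of Rpl41 with a mean of at least 13 gave -0.01 in both genotypes.

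**Figure D1:**
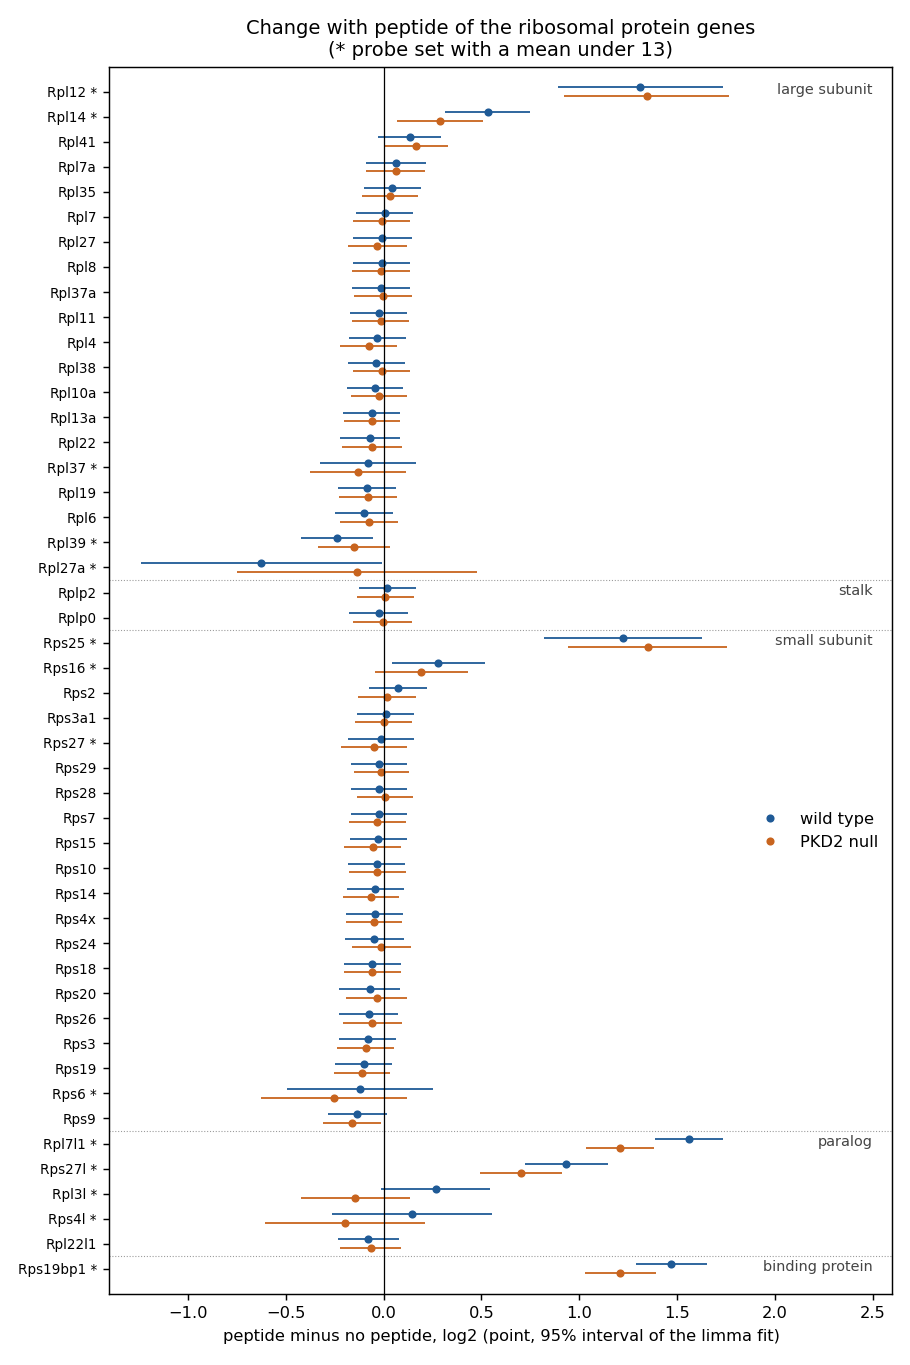
Change of each of the 48 genes with peptide (x axis, log2 signal with peptide minus without, limma estimate and 95% interval, n = 3 arrays per group) in wild-type (blue) and PKD2-null cells (orange), by the role of the protein. A star marks a probe set with a mean under 13; the 34 genes without a star lie between -0.16 and 0.17, and the 6 called genes all carry one.

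The values of the subunits were close to each other. Over the 17 large-subunit and stalk genes with a mean of at least 13, the median change was -0.02 (wild type) and -0.01 (null). For the 16 small-subunit genes in that range it was -0.04 in both genotypes. The stalk, which recruits the elongation factors, was represented by Rplp0 (-0.03 in wild-type and 0.00 in null cells) and Rplp2 (0.02 and 0.01). Rplp2 had signals of 14.71, 14.71 and 14.69 without and 14.73, 14.70 and 14.73 with peptide in wild-type cells, and 14.73, 14.69 and 14.71 against 14.75, 14.68 and 14.72 in null cells, so that all 4 groups overlapped. Rplp1, measured on a probe set shared with a predicted gene, gave -0.02 and 0.00. Of the ribosomal proteins whose symbols the rule does not take, Rpsa gave -0.04 and -0.06 and Fau -0.12 and -0.13, and neither was called.

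Small shifts in one direction did occur across mice. Of the 34 members with a mean of at least 13, 14 were lower with peptide in all 6 mice and 3 (Rpl35, Rpl41 and Rpl7a) were higher in all 6, that is 41.2% and 8.82%. Among the 65 probe sets with a mean of at least 13 that name other genes, and no ribosomal protein, these shares were 33.8% and 36.9%. Over all probe sets they were 20.1% and 16%. Those 65 were less bright than the 34 members, with a median signal of 13.45 against 14.32. The clearest of the 14 was Rps9, a small-subunit protein, with signals of 13.92, 13.92 and 13.91 without and 13.80, 13.76 and 13.78 with peptide in wild-type cells, and of 13.96, 13.90 and 13.83 against 13.76, 13.74 and 13.71 in null cells. The groups did not overlap in either genotype, yet the changes of -0.13 and -0.16 had adjusted p-values of 0.19 and 0.12. When limma let the spread depend on the signal, Rps9, Rps19 and Rps3 were called lower in both genotypes, Rpl6 in wild-type cells, and Rpl41 was called higher in both.

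Of the 5 paralogs, Rpl7l1 and Rps27l rose. Rpl7l1, related to Rpl7 and to an assembly factor of the large subunit in yeast, had signals of 8.71, 8.82 and 8.79 without and 10.24, 10.45 and 10.30 with peptide in wild-type cells, and of 9.02, 9.02 and 8.91 against 10.18, 10.17 and 10.23 in null cells. All stimulated arrays lay above all unstimulated ones. It rose by 1.56 ± 0.08 (SE), 2.95-fold, in wild-type cells (adjusted p = 2.3e-08) and by 1.21, 2.31-fold, in null cells (adjusted p = 3.5e-07), and its 3 probe sets, at 1.56, 1.54 and 1.32 in wild-type cells, all rose. Rpl7, its counterpart in the finished ribosome, gave 0.01 and -0.01, with an adjusted p of 0.97 and 0.96.

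Rps27l, a paralog of Rps27 known as a target of p53, had signals of 10.98, 10.63 and 10.80 without and 11.70, 11.68 and 11.85 with peptide in wild-type cells, and of 10.96, 11.06 and 10.89 against 11.68, 11.68 and 11.67 in null cells. The stimulated arrays were again all above the unstimulated ones. It rose by 0.93 ± 0.10 (SE), 1.91-fold, in wild-type cells (adjusted p = 7.8e-06) and by 0.70, 1.63-fold, in null cells (adjusted p = 0.00012), on each of its 3 probe sets. Rps27 lay between 8.19 and 8.44 on all 12 arrays and gave -0.01 and -0.05 (adjusted p of 0.94 and 0.75), and a brighter probe set that names Rps27 together with a related gene gave -0.08 in both genotypes, with none of these called.

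Rps19bp1, also known as a regulator of the deacetylase Sirt1, had signals of 8.39, 8.53 and 8.42 without and 9.92, 9.92 and 9.91 with peptide in wild-type cells, and of 8.57, 8.74 and 8.55 against 9.82, 9.74 and 9.93 in null cells. It rose by 1.47 ± 0.08 (SE), 2.77-fold, in wild-type (adjusted p = 5.1e-08) and by 1.21, 2.31-fold, in null cells (adjusted p = 4.8e-07). Its partner Rps19, a small-subunit protein whose gene is mutated in Diamond-Blackfan anaemia, gave -0.10 and -0.11 (adjusted p of 0.33 and 0.3).

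The other paralogs were not called. Rpl22l1 stands beside Rpl22, a large-subunit protein needed for the development of αβ T cells, and lay between 13.06 and 13.28 on all arrays. It gave -0.08 in wild-type and -0.07 in null cells, and Rpl22 gave -0.07 and -0.06. Rpl3l, best known from skeletal muscle and heart, stayed between 3.24 and 3.76, under every array median, and gave 0.27 and -0.14. Rps4l lay between 5.49 and 6.54 and gave 0.15 and -0.20, while Rps4x, the small-subunit protein it resembles, gave -0.05 in both genotypes. The proteins of these pairs were not compared in sequence here.

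**Figure D2:**
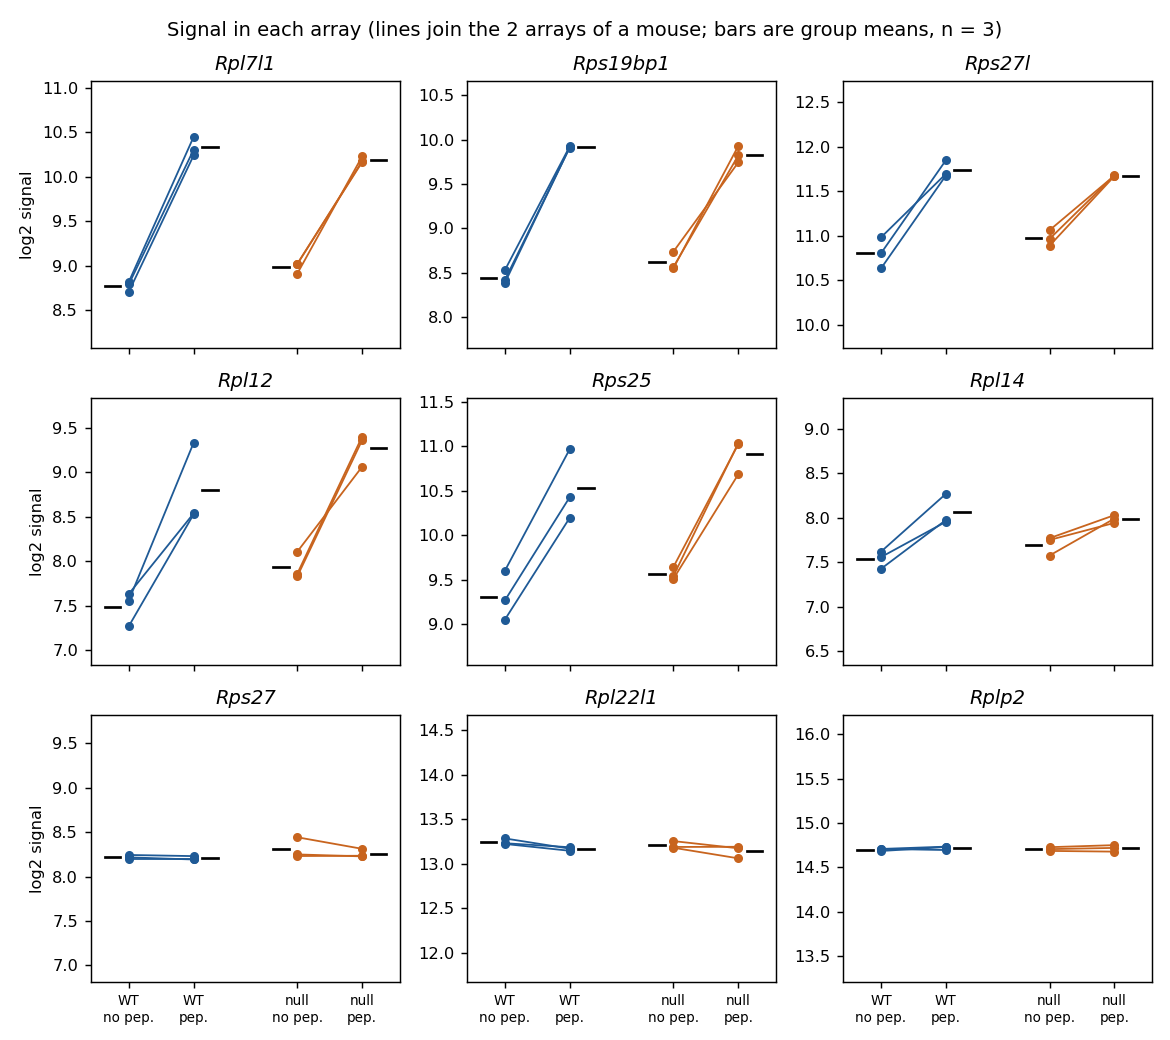
Log2 signal (y axis, each panel spanning the same range of values) of 9 members on the 12 arrays, wild type in blue and PKD2 null in orange, with and without peptide; lines join the arrays of 1 mouse and black bars are group means (n = 3). Rpl7l1, Rps19bp1, Rps27l, Rpl12 and Rps25 rise in every mouse of both genotypes, whereas Rps27, Rpl22l1 and Rplp2, which were not called, lie between 8.19 and 8.44, 13.06 and 13.28, and 14.68 and 14.75.

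Rpl12, Rps25 and Rpl14, which are ordinary constituents of the ribosome, were called on probe sets of middle or low signal. Rpl12, at the base of the stalk, had signals of 7.56, 7.63 and 7.27 without and 9.33, 8.54 and 8.53 with peptide in wild-type cells, and of 7.83, 8.11 and 7.86 against 9.36, 9.06 and 9.40 in null cells. The groups were well apart, and the probe set rose by 1.31 ± 0.19 (SE), 2.48-fold, in wild-type (adjusted p = 0.00016) and by 1.34, 2.54-fold, in null cells (adjusted p = 0.00019). A brighter probe set that names Rpl12 together with 3 predicted genes had signals of 14.31, 14.26 and 14.24 without and 14.22, 14.17 and 14.15 with peptide in wild-type cells. There the change was -0.09 (adjusted p = 0.41), and -0.04 in null cells (adjusted p = 0.79).

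Rps25, a small-subunit protein used by viral internal ribosome entry sites, had signals of 9.60, 9.05 and 9.27 without and 10.97, 10.20 and 10.43 with peptide in wild-type cells, and of 9.64, 9.51 and 9.54 against 11.03, 10.69 and 11.04 in null cells. It rose by 1.22 ± 0.19 (SE), 2.34-fold, in wild-type (adjusted p = 0.00021) and by 1.35, 2.55-fold, in null cells (adjusted p = 0.00013). Its brighter shared probe set gave -0.04 and -0.05 (adjusted p of 0.77 and 0.7). Rpl14 had signals of 7.56, 7.43 and 7.62 without and 7.96, 7.98 and 8.27 with peptide in wild-type cells, a rise of 0.53 ± 0.10 (SE) or 1.45-fold (adjusted p = 0.0012). In null cells Rpl14 had 7.77, 7.75 and 7.58 against 8.03, 7.94 and 7.99, and its change was 0.29 (adjusted p = 0.055, and 0.036 in a fit that blocks on the mouse), and its brightest shared probe set gave -0.07 and -0.04.

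The other ribosomal protein genes with a mean under 13 were not called. Rpl27a, a large-subunit protein, varied most between mice, with signals of 10.60, 10.28 and 10.68 without and 9.23, 10.38 and 10.07 with peptide in wild-type cells, and of 9.81, 10.52 and 10.00 against 9.75, 10.43 and 9.74 in null cells. It gave -0.62 ± 0.28 (SE, adjusted p = 0.13) in wild-type cells and was called lower there when the mouse was a block (adjusted p = 0.0499). Rps6, the substrate of the S6 kinases, gave -0.12 and -0.25, and was called lower in null cells with the block (adjusted p = 0.0455). Rpl39 gave -0.24 and -0.15 (adjusted p of 0.054 and 0.26), and Rpl37 gave -0.08 and -0.13. Rps16, measured between 3.22 and 3.74, gave 0.28 and 0.19.

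Disagreement between probe sets of 1 gene was common among the members. All 9 ribosomal protein genes of either subunit whose own probe set had a mean under 13 were also named by a probe set of several symbols with a mean of 13.93 to 14.7. None of these 9 brighter probe sets was called in limma, with changes of -0.09 to 0.01 in wild-type and -0.08 to 0.02 in null cells. Conversely, 14 members had single-symbol probe sets on both sides of 13. Their 33 bright ones gave 0 calls, while of their 23 others 9 were called higher and 1 lower in wild-type cells, and 12 higher and 2 lower in null cells. In wild-type cells 11% of all probe sets with a mean under 6 were called, in either direction. The shares were 57.3% between 6 and 8, 69.2% between 8 and 10, 70.9% between 10 and 12 and 66.5% between 12 and 13. In null cells these shares were 8.4%, 49.5%, 62.2%, 64.4% and 59.2%.

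Rps9 shows the contrast within 1 gene. The probe set described above fell short of a call at -0.13, but a probe set of Rps9 with a mean of 7.83 had signals of 7.29, 7.27 and 6.89 without and 8.66, 7.90 and 8.13 with peptide in wild-type cells and rose by 1.08 (adjusted p = 0.00031). In null cells it rose by 1.38 (adjusted p = 5.8e-05). Rps10 did likewise, with -0.04 on its brightest and a rise of 1.14 (adjusted p = 0.0009) on its dimmest probe set in wild-type cells, and Rpl35 with 0.05 and a rise of 1.03 (adjusted p = 0.00061). The opposite sign occurred once in wild-type cells: a probe set of Rpl13a at a mean of 10.7 fell by 0.30 (adjusted p = 0.023), and by 0.38 in null cells (adjusted p = 0.0064), while the 2 bright ones of Rpl13a were not called.

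Name types and signal went together. Names with x_at, s_at or a_at, given to probe sets able to bind several transcripts, were carried by 55 of the 60 member probe sets with a mean of at least 13 and by 16 of the 43 others. The 5 bright probe sets without such a name belonged to Rpl19, Rpl22, Rpl27, Rplp0 and Rps15, and gave -0.08, -0.04, -0.01, -0.03 and -0.03 in wild-type cells, with 0 called in limma. Of the 27 probe sets under 13 without such a name, 13 were called higher in wild-type and 14 in null cells, and 0 lower in either. The shares of all probe sets called at such signals are given above.

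**Figure D3:**
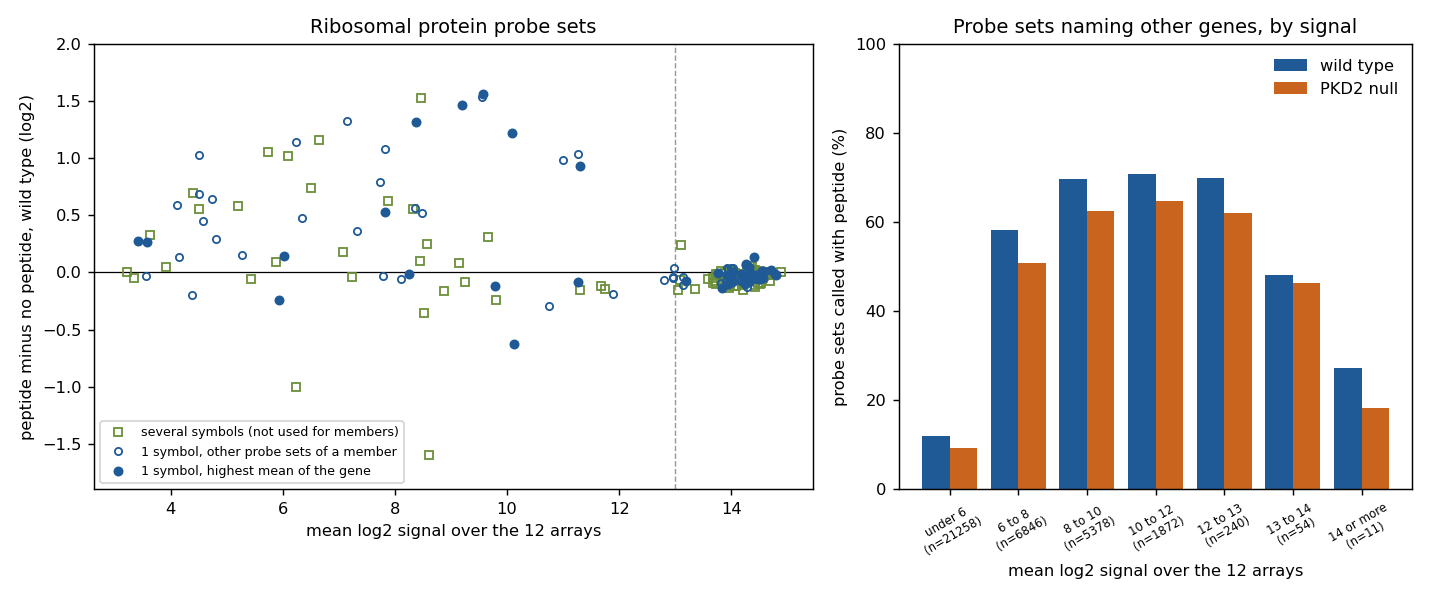
Left, mean log2 signal over the 12 arrays (x axis) against the change with peptide in wild-type cells (y axis, log2) for the probe sets of the members (filled, the one used for the gene; open circles, the others) and for probe sets of several symbols that name a ribosomal protein gene (squares); the dashed line is at 13. Right, share of the probe sets that name other genes, and no ribosomal protein, called with peptide, in percent, by mean signal; in wild-type cells it is 70.9% between 10 and 12, 48.1% of 54 between 13 and 14, and 27.3% of 11 from 14 up.

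Few genes outside the ribosome were as bright as the members. Of the 131 probe sets with a mean of at least 14, 44 belong to members, 57 others name a ribosomal protein, 19 carry no symbol and 11 name other genes. Of those 11, 3 (27.3%) were called in wild-type cells and 2 (18.2%) in the null. Those called in wild-type cells belonged to Srgn (0.56 in wild-type cells), which encodes a proteoglycan of secretory granules, Ppia with a predicted gene (0.22) and Actb, a cytoskeletal actin (0.19), all higher with peptide. Of the 54 with a mean between 13 and 14 that name other genes, 48.1% were called in wild-type and 46.3% in null cells, and between 10 and 12 it was 70.9% and 64.8% of 1872. The highest signal on any array was 15.07. Whether a change of such transcripts would show on these arrays in full was not tested. Npm1, a nucleolar assembly protein with a mean of 13.4, rose by 0.62 ± 0.08 (SE, adjusted p = 4.2e-05) in wild-type cells. Its signals there were 13.24, 13.09 and 13.03 without and 13.72, 13.76 and 13.74 with peptide. Among all 65 probe sets with a mean of at least 13 that name other genes, 27.7% were called higher and 16.9% lower in wild-type cells, and 26.2% and 15.4% in null cells. Of the 60 member probe sets in that range 0 were called in either genotype by limma, with 0 in wild-type and 2 in null cells at an unadjusted p under 0.05. The 2 sets differ in signal: 16 of the 60 lay between 13 and 14 and 44 at 14 or more, against 54 and 11 of the 65. Of the 81 other probe sets in that range that name a ribosomal protein, 1 was called, in wild-type cells.

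Beside this, 34 of 34 measured ribosome assembly genes rose in each genotype, with a median of 2.21 in wild-type and 1.88 in null cells. Their probe sets had a median signal of 10, against 14.32 for the 34 bright members. Of all probe sets, 69.2% between 8 and 10 and 70.9% between 10 and 12 were called in wild-type cells, in either direction. In null cells these shares were 62.2% and 64.4%. Rrp1b, a nucleolar protein of large-subunit assembly, had signals of 6.73, 6.41 and 6.64 without and 10.32, 10.08 and 10.13 with peptide in wild-type cells and rose by 3.58 ± 0.11 (SE, adjusted p = 1e-09), the largest rise of the list. The smallest wild-type rises were those of Bms1, a GTPase of small-subunit assembly (0.58), and Npm1. By mouse, the median change of the assembly genes was 2.22, 2.15 and 2.12 in wild-type and 1.91, 1.66 and 2.05 in null mice. The median of the 34 bright members in the same mice was -0.03, -0.05 and -0.02, and -0.02, -0.02 and -0.04.

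Most carriers of single ribosomal proteins rose as well. Of 7 measured dedicated chaperones, which keep 1 ribosomal protein soluble until it joins the particle, 5 rose in each genotype. Their probe sets had a median signal of 9.08. Of all probe sets with a mean between 8 and 10, 69.2% were called in wild-type and 62.2% in null cells, in either direction. Grwd1, which carries Rpl3, rose by 3.10 in wild-type and 2.47 in null cells. Heatr3, which brings Rpl5 and Rpl11 to the nucleus, rose by 2.36 and 1.93, while Rpl11 gave -0.02 in both genotypes. Tsr2, which escorts Rps26, rose by 2.09 and 1.52, while Rps26 gave -0.08 and -0.06. Bccip, linked to Rpl23, rose by 1.13 and 0.82, and Aamp fell by 0.27 in null cells (adjusted p = 0.016) and gave -0.09 in wild-type cells. Of 12 genes of RNA polymerase I and its factors, 8 rose in each genotype and Taf1b fell in wild-type cells by 0.36 (adjusted p = 0.017). The probe sets of these 12 had a median signal of 8.58, in the same range of the scale. The subunit Polr1b rose by 2.96 and 2.54, and Rrn3, which brings the polymerase to the ribosomal DNA, by 1.38 and 1.05.

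Other TOP mRNAs also had medians near 0 (-0.02 in wild-type and 0.00 in null cells), with a few calls. Of 12 measured, Hnrnpa1 was called higher and 3 genes lower in wild-type cells, and those 3 were also lower in null cells. The elongation factor gene Eef2 had signals of 13.62, 13.67 and 13.66 without and 13.15, 13.17 and 13.29 with peptide in wild-type cells. It fell by 0.45 (adjusted p = 0.00029) and in null cells by 0.42 (adjusted p = 0.0006). The initiation factor subunits Eif3f and Eif3h fell by 0.56 and 0.25 in wild-type and by 0.51 and 0.33 in null cells, and Hnrnpa1, which encodes an RNA-binding protein, rose by 0.26 in wild-type cells (adjusted p = 0.03).

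For the ribosome of the mitochondrion, 76 ribosomal protein genes were measured. In wild-type cells 54 of these were called higher and 4 lower, with a median of 0.53, and in null cells 48 were higher and 4 lower, with a median of 0.37. Mrps6, Mrps28, Mrpl17 and Mrps18b led in wild-type cells, with rises of 2.51, 2.06, 1.77 and 1.71. The falls were led by Mrpl34, which had signals of 9.48, 9.68 and 9.60 without and 8.21, 8.65 and 8.46 with peptide and fell by 1.14 (adjusted p = 3.8e-06). Their probe sets had a median signal of 9.23, in the range of the scale where 69.2% of all probe sets were called in wild-type cells, and those of the cytosolic members one of 14.1.

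**Figure D4:**
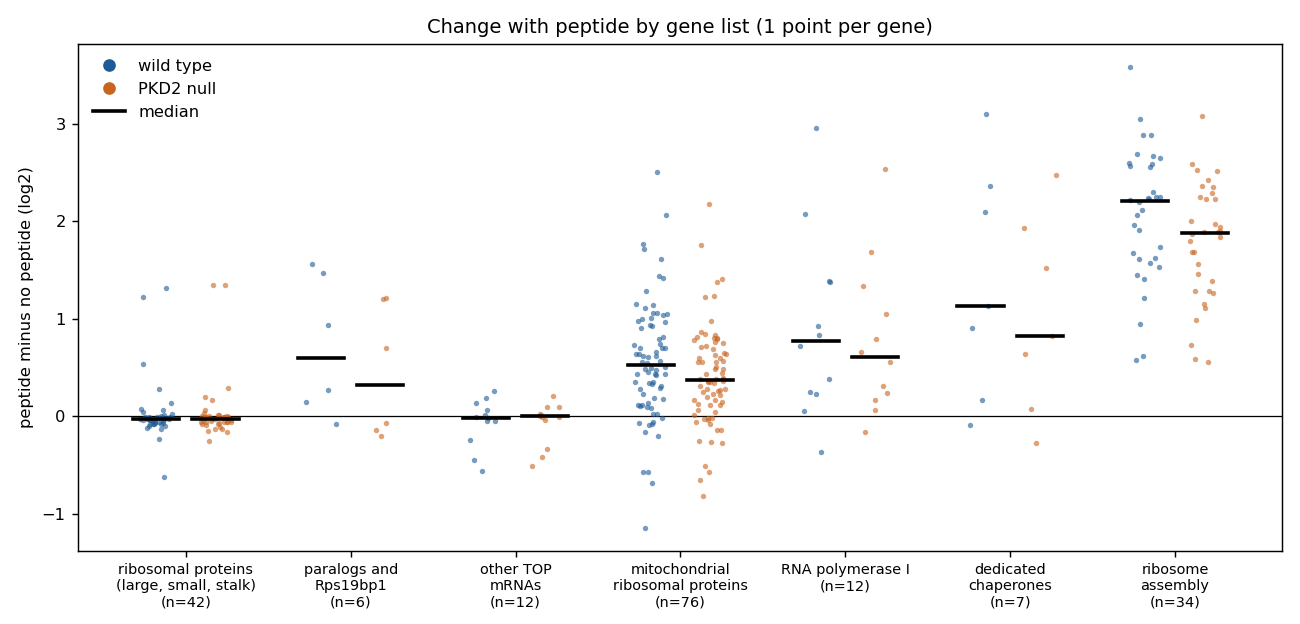
Change with peptide (y axis, log2, limma estimate from 3 arrays per group) of each gene in 7 lists, in wild-type (blue) and PKD2-null cells (orange); bars are medians. The 42 ribosomal proteins centre on 0, the other TOP mRNAs lie near them, and the mitochondrial ribosomal proteins, polymerase I genes, chaperones and assembly genes lie mostly above.

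The start of the gene was compared because the TOP motif sits there. RefSeq's promoter table (build GRCm38.p6) held 42 of the 48 members; Rpl7, Rpl8, Rps14, Rps20, Rps29 and Rps4l were not matched. A strict TOP start, here a C at the annotated first base followed by 4 bases that are all C or T on the gene's strand, was found in 8 members (19.0%), in 3.01% of all genes of the table, and in none of 28 assembly and 67 mitochondrial ribosomal protein genes. A run of at least 7 C or T within 20 bases of the start was found in 26 members (61.9%) and in 27.5% of all genes, 14.3% of assembly genes, 23.9% of mitochondrial ribosomal protein genes and 4 of 8 other TOP mRNAs. The annotated start can lie some bases from the one used in these cells, which the strict count depends on. The windows below, each of 30 bases with 15 before the annotated first base, 5′ to 3′ on the gene's strand, set 3 members with a strict TOP start that were not called beside the 6 that were. Capitals mark the longest run of C and T in the window.
Rps18 (chr17:33955651-33955680, minus strand): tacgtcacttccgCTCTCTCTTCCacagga
Rplp2 (chr7:141447636-141447665, plus strand): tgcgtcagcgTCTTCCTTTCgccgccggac
Rps27 (chr3:90213634-90213663, minus strand): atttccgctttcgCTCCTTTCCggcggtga
Rpl7l1 (chr17:46782642-46782671, minus strand): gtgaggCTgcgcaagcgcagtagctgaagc
Rps19bp1 (chr15:80264292-80264321, minus strand): cagggcggaagtagCTCgccgcgtgtgggc
Rps27l (chr9:66946071-66946100, plus strand): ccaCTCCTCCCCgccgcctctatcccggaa
Rpl12 (chr2:32961697-32961726, plus strand): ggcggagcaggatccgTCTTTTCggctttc
Rps25 (chr9:44407699-44407728, plus strand): TTTTTCCgacatcttagcgaggctgctgtg
Rpl14 (chr9:120571502-120571531, plus strand): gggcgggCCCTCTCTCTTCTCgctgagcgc

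In Rpl7l1 and Rps19bp1 the longest run in the window had 2 and 3 bases, whereas the run of Rps18 had 11 and spanned the first base. Rps27l, shown at the first of its 2 annotated starts, had a run of 9 that ended before the first base, and Rps27 a run of 9 across it. Of the 6 called genes, Rpl14 had a strict TOP start and 4 had a run of at least 7 bases. Among members, 5 paralogs and Rps19bp1 aside, 24 of the 37 matched genes had such a run (64.9%). A match is a description of these letters only.

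No member passed the test in a comparison of the genotypes. Without peptide 0 of the 48 members were called between null and wild-type cells in limma (3 with an unadjusted p under 0.05), against 0.0377% of all probe sets. With peptide 0 were called (1 with an unadjusted p under 0.05), against 1.18%, and 0 differed in their response to peptide (3 with an unadjusted p under 0.05), against 0.00222%. The 34 bright members differed by -0.04 to 0.04 without peptide, with 95% intervals from -0.20 to 0.19, and by -0.05 to 0.06 with it, with intervals from -0.20 to 0.21.

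The smallest p-values without peptide were those of Rpl7l1, which was 0.21 higher in null cells (adjusted p = 0.45), Rps4l (0.50 higher, adjusted p = 0.45) and Rpl12 (0.45 higher, adjusted p = 0.53). With peptide they were those of Rpl12 (0.48 higher, adjusted p = 0.26), Rps25 (0.38 higher, adjusted p = 0.35) and Rpl7l1 (0.14 lower in null cells, adjusted p = 0.44). Without wild-type stimulated replicate 1, in which the Rpl12 probe set was highest of the 3, Rpl12 was called higher in stimulated null cells (0.74, adjusted p = 0.03). For the difference of the responses they were Rpl7l1, whose rise was smaller by 0.35 ± 0.11 (SE) in null cells (adjusted p = 0.55), Rpl3l (-0.41, adjusted p = 0.68) and Rps19bp1 (-0.26, adjusted p = 0.69). The 34 assembly genes had a median difference of -0.30, and 0 of them were called in limma for it, with 15 at an unadjusted p under 0.05. The B cell markers moved with the genotype, with 13 of 13 measured ones higher in unstimulated null cells, of which 0 were called, and 12 of 13 higher in stimulated null cells, of which 3 were called. Their part in the small differences of the members was not tested.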

How the data were processed

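The log2 signals of the 12 arrays were used as deposited. The submitters' processing notes name Affymetrix Expression Console 1.1. How the signals were normalized is not given in these sources, and they were not normalized again. Arrays scaled to like distributions do not show the amount of RNA per cell. Gene names came from the platform annotation, and 64 control probe sets were left out.

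Group means were fitted over all 12 arrays with limma 3.58.1 in R 4.3.3, and 5 comparisons were tested two-sided with moderated variances and Benjamini-Hochberg adjustment over 45037 probe sets; a probe set was called at an adjusted p under 0.05. Replicates are separate mice. Each mouse gave both conditions, by the animal numbers in the labels, and its arrays deviated together (r of 0.116 to 0.577, against at most 0.129 between mice), so the mouse as a block was an alternative. The scripts were tested on simulated data.

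The members and lists were chosen with earlier results of these data known. Named are called members, the smallest p of each genotype comparison, paralog pairs, the stalk, the dimmest members and up to 4 called genes each way per list; probe sets and members named to show disagreement or shifts across mice (Rps9, Rps10, Rpl35, Rpl13a, Rpl41, Rps19, Rps26 and Rpl11 among them) were picked after their values were seen, as were the rise of Npm1 and Bms1 as the lowest of their list and the threshold of 13. Promoter windows came from RefSeq. Protein sequences were not used here.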

Additional observations from a re-analysis of the deposited data

How the results depend on the processing

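The counts and medians of the 5 comparisons were recomputed under each alternative, the last pair below chosen after seeing the data. Leaving out 1 array at a time gave 6 to 7 members called higher and 0 to 2 lower in wild-type cells (2 without wild-type stimulated replicate 2, Rpl27a and Rpl39), 5 to 6 higher in null cells, and 0 to 1 higher between genotypes with peptide. The medians then ranged from -0.031 to -0.0222 in wild-type and from -0.0312 to -0.0215 in null cells, from 2e-04 to 0.0108 between genotypes with peptide and from -0.0179 to 0.0029 for the difference of responses. With the mouse as a replicate block, pairing its arrays, 1 member was called lower in wild-type (Rpl27a, adjusted p = 0.0499) and 1 in null cells (Rps6, adjusted p = 0.0455), 6 were called higher in null cells, Rpl14 included, and no other call changed. With a signal-dependent spread 4 were called lower in wild-type and 3 in null cells. Averaging a gene's probe sets gave 1 lower in each genotype, 11 higher in null cells, and medians of -0.0051 and -0.0074, with 0.0111 between genotypes with peptide. It also added Rpl35, Rpl41 and Rps20 to the members called higher in wild-type cells. Probe sets without x_at, s_at or a_at names left 25 members, with 10 called higher in wild-type and 11 in null cells and medians of 0.2793, 0.1929, 0.0402, 0.0514 and -0.0243 for the responses of wild-type and null cells, the genotypes without and with peptide, and the difference. Quantile normalization gave medians of -0.0081 and -0.0069 with peptide. Equal array medians gave 1 lower in wild-type cells and medians of 0.03 and 0.0239 for the genotype comparisons. Setting the brightest 10% of signals equal, a shift of 0.0561 and 0.0441 with peptide, gave 1 lower in wild-type cells and, in the order above, medians of -0.0812, -0.0754, -0.0183, -0.0126 and 0.0095. Without dim probe sets 1 was called lower in wild-type cells. The dimmest probe set above the median mean signal gave 11 higher and 1 lower in wild-type, 10 and 1 in null cells, and medians of -0.0102 in null cells and 0.0275 between genotypes without peptide. The brightest probe set naming the gene, several symbols allowed, gave 3 higher in each genotype (Rpl7l1, Rps19bp1 and Rps27l) and turned the sign of Rpl12 (-0.0905 and -0.0372), Rps25 (-0.0372 and -0.0511) and Rpl14 in wild-type cells (-0.0672). The cause of these moves was not tested. At a mean of 14 or more only 11 probe sets name other genes, which limits the comparison there, and 3 arrays per group limit the precision.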

Other observations

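Probe sets that name several genes add values for ribosomal proteins outside the 48. Of 110 such probe sets, 79 had a mean of at least 13, and among them 1 was called in wild-type cells, shared by Dnaaf2, Rpl36al and Rpl36a (0.24 higher, adjusted p = 0.021), and 0 in null cells by limma, where 1 had an unadjusted p under 0.05. A brighter probe set shared by Rpl36al and Rpl36a alone gave -0.01 and 0.02. Of the 31 dimmer ones 10 rose and 3 fell in each genotype. A probe set shared by Rpl3 and 2 predicted genes rose by 1.53 in wild-type and 1.87 in null cells, while another that names Rpl3 at a mean of 14.1 gave -0.12 and -0.14. The falls included the probe sets shared by Rpl13 and Tax1bp3 (-1.60 in both genotypes) and by Rpl13a and Flt3l (-1.01 and -1.52). Rpl39l, which the rule leaves out, lay between 3.89 and 4.27 in wild-type cells, under every array median. In null cells it lay between 4.59 and 5.86. With peptide it rose by 0.64 in null cells (adjusted p = 0.025) but gave -0.08 in wild-type cells.

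The sequence CACGTG, the E-box bound by Myc and related factors and its own reverse complement, was looked for after the values were known. It occurred in the 300-base windows of 4 of 42 members (Rpl13a, Rpl14, Rpl19 and Rps19; 9.52%), of 7 of 28 ribosome assembly genes (25%) and of 8.09% of all genes of the table. No match says only that these letters are not in the window.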
